A study of Mus musculus with 6 samples.

Results

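The 10 genes described here mark resident or recruited macrophages in mouse sciatic nerve, 10 of 54309 genes in the files. They were taken by gene symbol, with the values of all annotated transcripts of a symbol summed. Csf1r and Adgre1 mark macrophages as a whole, Mrc1, Folr2, Cd163 and Lyve1 mark the resident macrophages of the epineurium, Trem2 and Cx3cr1 mark those of the endoneurium, and Ccr2 and Cybb mark monocyte-derived cells. Left sciatic nerve tissue, whole nerve by the labels and a proximal segment by the methods of the study, came from C57BL/6J mice aged 6 to 8 weeks, female or male, and was collected 24 h after a sham operation that exposed the nerve without cutting it. Each sex had 3 samples and each sample was a pool of 2 mice, so 6 females were compared with 6 males in the form of 3 pools each. Strand-specific poly-A RNA was sequenced, axotomized nerves were not analysed here, and the question was how the marker sets stand to each other in sham nerve and whether they differed between the sexes.

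A peripheral nerve holds macrophages at rest. Those of the epineurium, the connective tissue around the nerve and its vessels, carry scavenger receptors, while those of the endoneurium, between the nerve fibers, share some genes with microglia of the brain. Monocytes enter from blood along chemokine gradients that are read by Ccr2, and once in tissue they can take on a macrophage program, so a marker of recruited cells is not confined to them. In pieces of whole tissue, fewer cells of a type and less RNA per cell cannot be told apart.

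The libraries held 55949876 to 66285694 estimated read pairs in females and 59165914 to 78473057 in males. Xist was at 663 to 684 CPM in the female pools and 0.212 to 2.85 CPM in the male pools, so the sex labels matched the RNA. Female replicate 2 stood apart by its fast skeletal muscle transcripts, whose 18 listed genes summed to 4408 TPM there, 53.1 and 117 TPM in the other female pools and 109 to 302 TPM in the male pools. Lymphocyte genes were low in every pool, at a summed 5.49 to 6.68 TPM in female pools, against 4.14 to 8.47 TPM in male pools over 8 genes.

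Promoters of members from 3 of the marker sets are shown as a description of their sequence. GAGGAA, on either strand (TTCCTC on the strand shown), is the core of sites bound by PU.1, the Ets factor of the myeloid lineage. Capitals mark the matches, and each window runs from 250 bases before the start of transcription to 50 bases after it, from RefSeq on GRCm38.p6. Of the 10 members 7 had an entry (Ccr2, Cd163, Cx3cr1, Cybb, Folr2, Mrc1 and Trem2) and 3 held a match. Among 32851 promoters of the same length 28.3% held one, and a match is only a description of the letters. The windows are chrX:9469275-9469574 (minus strand) for Cybb, chr9:124101933-124102232 (plus strand) for Ccr2, chr17:48346151-48346450 (plus strand) for Trem2 and chr2:14229164-14229463 (plus strand) for Mrc1.
Cybb: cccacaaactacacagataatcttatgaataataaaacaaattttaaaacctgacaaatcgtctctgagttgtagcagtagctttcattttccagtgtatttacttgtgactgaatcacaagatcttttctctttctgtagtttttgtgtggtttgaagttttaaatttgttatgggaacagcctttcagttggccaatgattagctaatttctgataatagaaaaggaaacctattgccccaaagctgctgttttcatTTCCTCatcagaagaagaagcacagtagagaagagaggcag
Ccr2: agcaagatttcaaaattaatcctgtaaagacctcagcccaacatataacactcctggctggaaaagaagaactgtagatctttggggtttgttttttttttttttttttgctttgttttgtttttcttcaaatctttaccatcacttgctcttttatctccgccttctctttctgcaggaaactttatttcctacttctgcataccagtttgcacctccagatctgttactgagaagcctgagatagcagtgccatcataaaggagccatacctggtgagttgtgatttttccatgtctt
Trem2: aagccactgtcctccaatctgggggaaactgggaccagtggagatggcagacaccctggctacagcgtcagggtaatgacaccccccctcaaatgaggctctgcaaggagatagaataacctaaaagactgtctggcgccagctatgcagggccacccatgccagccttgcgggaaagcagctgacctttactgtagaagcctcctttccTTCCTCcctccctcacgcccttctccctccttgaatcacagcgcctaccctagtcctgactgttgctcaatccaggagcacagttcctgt
Mrc1: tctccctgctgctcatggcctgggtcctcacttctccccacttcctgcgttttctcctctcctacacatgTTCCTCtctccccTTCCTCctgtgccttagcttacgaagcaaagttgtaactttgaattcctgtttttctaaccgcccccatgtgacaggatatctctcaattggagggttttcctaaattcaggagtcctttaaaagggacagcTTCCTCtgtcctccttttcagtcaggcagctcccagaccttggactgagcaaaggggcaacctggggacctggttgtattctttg
The Cybb match began at base 10 of the transcript, the Trem2 match began 40 bases before the start, and the 3 Mrc1 matches began 180, 167 and 35 bases before it. The Ccr2 window held none, and neither did those of Cd163, Cx3cr1 and Folr2, which are not shown. The windows shown thus include every member with a match but not every member without one. Whether matches relate to the differences between the sexes was not tested.

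All 10 markers were expressed in every pool. Per length, as TPM (read pairs per base of transcript, scaled to the same total in every pool), Ccr2 led with a mean of 332.9 TPM over the 6 pools, at percentile 97.5 of the 16310 genes tested, and Csf1r followed with 193 TPM. Mrc1 (121 TPM), Folr2 (114 TPM), Adgre1 (105 TPM), Cybb (80.8 TPM), Trem2 (53.9 TPM), Cd163 (50.9 TPM) and Lyve1 (39.5 TPM) came next. Cx3cr1 was last with 7.77 TPM, at percentile 36.0. The range over pools was clear of that of the next gene for Ccr2 over Csf1r, for Csf1r over Mrc1 and for Lyve1 over Cx3cr1. The ranges of the other 6 pairs of neighbors overlapped. Within a pool, Adgre1 was above Cybb and Cybb above Trem2 in all 6 pools, while each of the other 4 pairs was turned round in at least 1 pool.

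**Figure D1:**
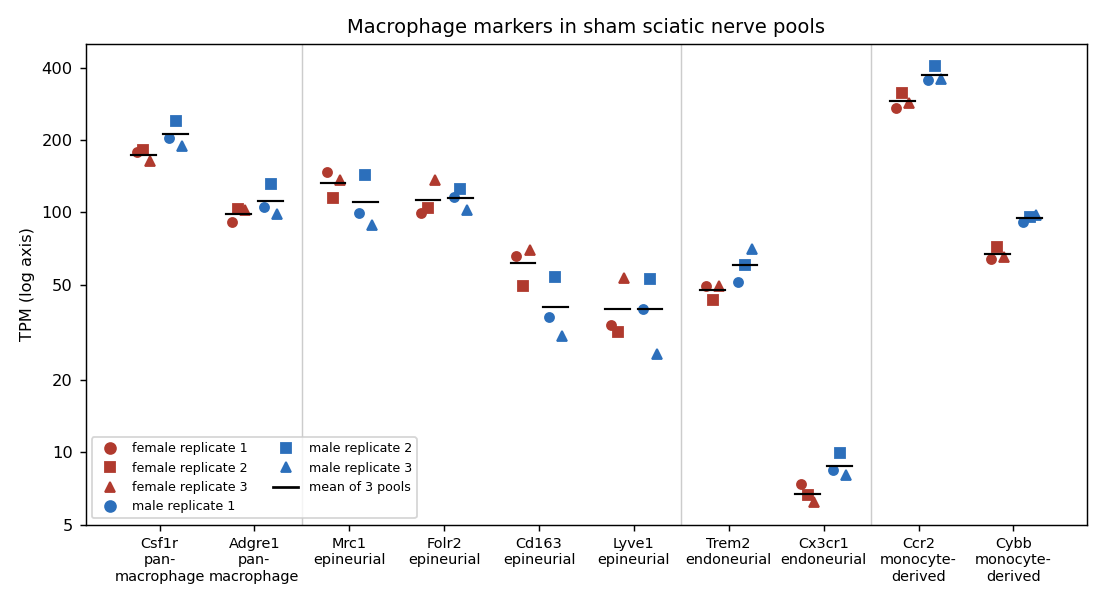
TPM of the 10 markers (log axis) in each of the 3 female (red) and 3 male (blue) pools, grouped by marker set, with black lines at the mean of 3 pools. Cybb, Ccr2, Csf1r, Cx3cr1 and Trem2 of the 3 male pools lie above those of the 3 female pools. Adgre1 and the 4 epineurial markers overlap, and Cx3cr1 is far below the rest.

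Between the sexes, the markers of recruited cells and of the endoneurium had lower values in females, and the epineurial markers did not follow them. Of the 10 markers 0 were called by edgeR's quasi-likelihood test at an adjusted p under 0.1, where 0.0613% of all 16310 genes tested were called. At an unadjusted p under 0.05 there were 6 of 10 (all genes, 6.11%), 5 of them lower in females (all genes, 3.62%) and 1, Cd163, higher in females (all genes, 2.49%). In normalized CPM (counts scaled to the size of the library), 6 of 10 had all male pools above all female pools (all genes, 6.04%), namely Csf1r, Adgre1, Cx3cr1, Trem2, Ccr2 and Cybb, and 0 of 10 had all female pools above all male pools (all genes, 5.16%). The median log2 fold change, female over male, was -0.27 for the 10 markers and 0.0016 for all genes tested. DESeq2 called 4 of the 10 (all genes, 0.978%) and limma voom with sample weights 1 of the 10 (all genes, 0.11%). With edgeR, 1 of the 10 was called when fast muscle genes were left out (all genes, 0.0737%) and 2 of the 10 with no filter on low counts (all genes, 0.155%). The edgeR test also left Xist uncalled (adjusted p = 0.24), so a marker that was not called may still differ.

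The 2 markers of the recruited set had the lowest fold changes, female over male, of the 10 markers. Cybb (chrX:9301491-9354010 on GRCm39, minus strand) encodes gp91phox, the catalytic subunit of the phagocyte NADPH oxidase. It was at 64.0, 71.5 and 65.0 TPM in the female pools and 91.4, 95.9 and 97.2 TPM in the male pools. The highest female pool stayed well under the lowest male pool, and the spread within a sex was small beside the gap. The log2 fold change was -0.57 (SE 0.08, 95% interval -0.75 to -0.39), with an edgeR adjusted p of 0.12. DESeq2 called Cybb at an adjusted p of 4.9e-08, and over all alternatives its adjusted p ranged from 4.9e-08 to 0.45 while the fold change stayed between -0.61 and -0.51. A single transcript, Cybb-201, held 97.4% to 99.8% of the gene's TPM in the pools, and by itself was at 62.4, 70.3 and 64.3 TPM in the female pools, against 89.9, 94.8 and 96.9 TPM in the male pools.

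Ccr2 (chr9:123901982-123913594 on GRCm39, plus strand), the receptor by which inflammatory monocytes leave the marrow and enter tissue, was the most abundant marker. It was at 273, 315 and 286 TPM in the female pools and 357, 407 and 359 TPM in the male pools. No female pool reached a male pool. The log2 fold change was -0.45 (SE 0.10, 95% interval -0.69 to -0.22), with an edgeR adjusted p of 0.42, a DESeq2 adjusted p of 0.0071 and a range over the alternatives of 0.0071 to 0.93. Its reads were split over 4 coding transcripts, of which Ccr2-202 held 62.3% of the TPM on average.

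Ccr2 is also made by dendritic cells and Cybb by neutrophils. The 6 dendritic cell genes summed to 31.6, 31.1 and 27.5 TPM in female pools, against 32.9, 39.2 and 32.9 TPM in male pools, without overlap. The most abundant of the 6 made up most of that sum, and by itself it overlapped between the sexes in CPM. Gene by gene, 4 of the 6 had a fold change below 0, and 2 of these had an unadjusted p under 0.05 (all genes, 3.62%). In CPM 1 had all male pools above all female pools (all genes, 6.04%), and 0 were called by edgeR or DESeq2. The 10 neutrophil genes summed to 3461 to 6087 TPM in female pools, against 3809 to 4876 TPM in male pools, with overlap. Their part in the Ccr2 and Cybb values was not tested. Without female replicate 2, the pool rich in muscle transcripts, Cybb was at 150.1 to 169 CPM in females and 228 to 253 CPM in males, and Ccr2 at 376 to 441 CPM in females and 530.3 to 640 CPM in males, again without overlap.

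Other genes of monocytes did not separate in the same way. Of 9 such genes 8 had a fold change below 0, with a median log2 value of -0.21, but 0 were called by edgeR, 0 by DESeq2 and 0 had an unadjusted p under 0.05. Plac8, abundant in monocytes, was at 869, 948 and 965 TPM in female pools, against 1166, 823 and 1213 TPM in male pools. Ms4a4c, the gene of the list with the smallest p, was at 365, 439 and 426 TPM in female pools, against 566, 392 and 676 TPM in male pools. Ly6c2, which defines classical monocytes and was picked out after its values were seen, was at 290.1, 327 and 340.1 TPM in female pools, against 546, 223 and 802 TPM in male pools. In all 3 genes male replicates 1 and 3 were high and male replicate 2 was lowest of the 6 pools or near it, whereas Ccr2 was highest in male replicate 2.

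Chemokines and growth factors that act on the markers had fold changes above 0 in 6 of 6 genes, in normalized counts. All 6 ligands passed the filter on low counts, 0 were called by edgeR, DESeq2 or voom and 0 had an unadjusted p under 0.05, with a median log2 fold change of 0.14. Ccl2, the main ligand of Ccr2, was at 1030.4, 607 and 544 TPM in female pools, against 574, 477 and 634 TPM in male pools, and Ccl7, a second ligand, at 937, 539 and 549 TPM in female pools, against 546, 416 and 605 TPM in male pools. Female replicate 1 stood above the other 5 pools in both, and the sexes overlapped. Csf1 and Il34, the ligands of Csf1r, averaged 64.0 ± 13.5 and 61.3 ± 3.89 TPM in female pools, against 61.0 ± 4.42 and 63.2 ± 0.336 TPM in male pools (SD over 3 pools per sex). Cx3cl1, the ligand of Cx3cr1, was low at 1.98 to 3.19 TPM in female pools, against 1.95 to 3.20 TPM in male pools. Ccl12 was at 155 to 238 TPM in female pools, against 104 to 210.3 TPM in male pools.

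The partners that work with Cybb and Trem2 inside the cell had fold changes below 0 in 8 of 8 genes, with a median log2 value of -0.24. Of these 0 were called by edgeR, DESeq2 or voom. An unadjusted p under 0.05, lower in females, was reached by 2 (all genes, 3.62%). In CPM 4 had all male pools above all female pools (all genes, 6.04%). Cyba, the membrane partner of gp91phox, was at 359, 349 and 353 TPM in female pools, against 407, 397 and 542 TPM in male pools. The sexes did not overlap, and male replicate 3 was the highest pool. The cytosolic oxidase subunits Ncf1 and Ncf4 had log2 fold changes of -0.08 and -0.28, and the GTPase Rac2 of -0.18. Tyrobp (DAP12), the adaptor of Trem2, was at 878, 936 and 879 TPM in female pools, against 986, 1058 and 1254 TPM in male pools, also without overlap. The kinase Syk, which Tyrobp recruits, was at 42.0, 39.4 and 34.6 TPM in female pools, against 45.6, 46.1 and 45.5 TPM in male pools, with a log2 fold change of -0.25 and an edgeR adjusted p of 0.65. Hcst (DAP10) was at 16.9 to 21.7 TPM in female pools, against 19.9 to 28.9 TPM in male pools.

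The endoneurial pair had lower values in females in both genes. Cx3cr1 (chr9:119877749-119898945 on GRCm39, minus strand), the fractalkine receptor, was at 7.36, 6.63 and 6.19 TPM in female pools, against 8.42, 9.95 and 8.06 TPM in male pools. The groups did not overlap, although the gene was the least abundant member, with 6206 read pairs over all pools. Its log2 fold change was -0.40 (SE 0.09, 95% interval -0.60 to -0.20), with an edgeR adjusted p of 0.42, a DESeq2 adjusted p of 0.036 and a range over the alternatives of 0.036 to 0.94. Trem2 (chr17:48653429-48661175 on GRCm39, plus strand), a lipid-sensing receptor of microglia and phagocytes, was at 49.4, 43.2 and 49.4 TPM in female pools, against 51.3, 60.0 and 70.4 TPM in male pools. All male pools were higher, by little in male replicate 1 and most in male replicate 3. The log2 fold change was -0.35 (SE 0.13, 95% interval -0.66 to -0.04; edgeR adjusted p = 0.79), and it was -0.17 without male replicate 3.

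Among 9 other genes of microglia-like cells 8 passed the filter, and 7 of these had a fold change below 0, with a median log2 value of -0.15. Of the 8, 0 were called by edgeR or DESeq2, and 1 had an unadjusted p under 0.05, lower in females (all genes, 3.62%). Olfml3, among the most abundant of the list, was the 1 tested gene with a fold change above 0 (log2 value 0.13). It was at 58.1 to 66.8 TPM in female pools, against 48.0 to 62.2 TPM in male pools. Sall1, the microglial transcription factor, did not pass and was at 0.0959 ± 0.0312 TPM in female pools, against 0.0997 ± 0.0251 TPM in male pools (SD over 3 pools per sex). Of 8 genes that rise with Trem2 activity in other tissues 6 had a fold change below 0, with 0 called by edgeR or DESeq2. An unadjusted p under 0.05, lower in females, was reached by 1 (all genes, 3.62%). That gene, Apoe, the lipid carrier, was at 1368, 1380 and 1713 TPM in female pools, against 1778, 2053 and 2268 TPM in male pools, while Spp1 and Cd9 had log2 fold changes of -0.08 and 0.01.

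Of the pan-macrophage pair, Csf1r had a fold change between those of Cx3cr1 and Trem2, and Adgre1 had a smaller one. Csf1r (chr18:61229714-61266535 on GRCm39, plus strand), the receptor for the growth factors on which macrophages depend, was at 178, 181 and 163 TPM in female pools, against 204, 240.5 and 189.6 TPM in male pools. The groups did not overlap, with a log2 fold change of -0.38 (SE 0.08, 95% interval -0.57 to -0.19), an edgeR adjusted p of 0.42, a DESeq2 adjusted p of 0.0063 and a range over the alternatives of 0.0063 to 0.94. Adgre1 (chr17:57665573-57790527 on GRCm39, plus strand), the F4/80 antigen, was at 91.1, 103 and 102 TPM in female pools, against 105, 131 and 98.5 TPM in male pools. Male replicate 3 fell between the female pools in TPM, whereas the normalized CPM did not overlap, and the log2 fold change was -0.19 (SE 0.09, 95% interval -0.40 to 0.02; edgeR adjusted p = 0.83). It was -0.099 without male replicate 2.

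Of 13 other pan-macrophage genes 10 had a fold change below 0, with a median log2 value of -0.23. An unadjusted p under 0.05 was reached by 4, all 4 lower in females (all genes, 3.62%). By edgeR 0 were called and by DESeq2 1 (all genes, 0.978%), Lyz2, the lysozyme of myeloid cells. Lyz2 was at 2027, 2055 and 2054 TPM in female pools, against 2305, 3403 and 2780 TPM in male pools (log2 fold change -0.47, edgeR adjusted p = 0.60, DESeq2 adjusted p = 0.071). C1qb, a chain of complement C1q, was at 355, 312 and 392 TPM in female pools, against 394, 455 and 437 TPM in male pools.

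**Figure D2:**
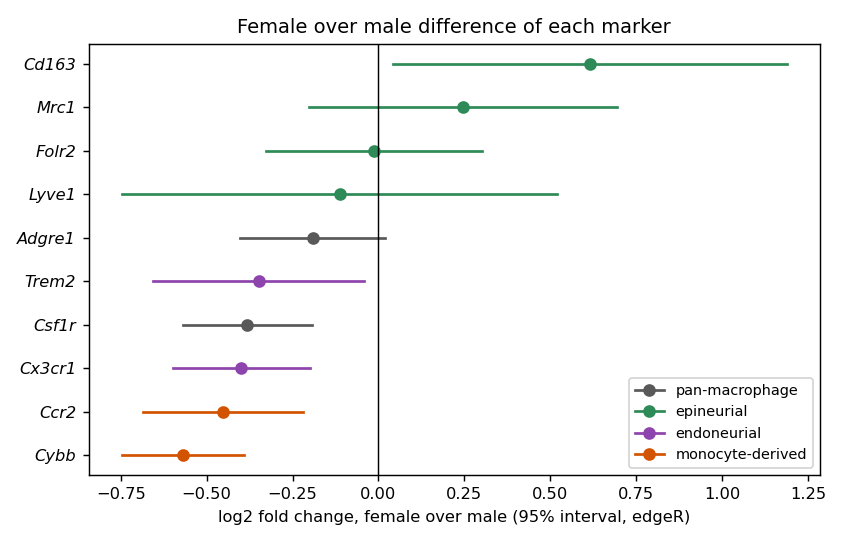
Log2 fold change, female over male, of the 10 markers from edgeR with 95% intervals, colored by marker set. The monocyte-derived markers Cybb (-0.57) and Ccr2 (-0.45) are at the low end, and Cd163 (0.62) and Mrc1 (0.25), both epineurial, are the only markers with estimates above 0.

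The epineurial markers spanned both signs, with wide intervals. Cd163 (chr6:124281606-124307560 on GRCm39, plus strand), the scavenger receptor for hemoglobin and haptoglobin, was at 65.8, 49.2 and 69.3 TPM in female pools, against 36.5, 53.7 and 30.6 TPM in male pools. Male replicate 2 lay above female replicate 2, so the groups overlapped. The log2 fold change was 0.62 (SE 0.24, 95% interval 0.04 to 1.19; edgeR adjusted p = 0.81). Without female replicate 2 the groups no longer overlapped, with 161 to 182 CPM in females and 77.7 to 135 CPM in males.

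Mrc1 (chr2:14234151-14336926 on GRCm39, plus strand), the mannose receptor CD206, was at 147, 115 and 136 TPM in female pools, against 99.5, 143 and 88.2 TPM in male pools. As for Cd163, male replicates 1 and 3 were the lowest pools and male replicate 2 lay among the female values, and the log2 fold change was 0.25 (SE 0.19, 95% interval -0.20 to 0.69; edgeR adjusted p = 0.88). It was 0.49 without male replicate 2, 0.11 without male replicate 3 and 0.089 with voom. Folr2 (chr7:101489195-101506401 on GRCm39, minus strand), the folate receptor beta of resident macrophages, was at 99.4, 104 and 136 TPM in female pools, against 115, 126 and 102 TPM in male pools, with a log2 fold change of -0.01 (SE 0.13, 95% interval -0.33 to 0.30; edgeR adjusted p = 0.99). Lyve1 (chr7:110448585-110462460 on GRCm39, minus strand), a hyaluronan receptor, was at 33.8, 31.8 and 53.3 TPM in female pools, against 39.5, 53.0 and 25.7 TPM in male pools, with a log2 fold change of -0.11 (SE 0.26, 95% interval -0.74 to 0.52; edgeR adjusted p = 0.96). Both were highest in female replicate 3 and next in male replicate 2, and the spread within a sex was larger than the difference between the means. The interval for Lyve1 leaves room for differences as large as that of Cybb.

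Lyve1 is also a defining gene of lymphatic endothelium, and its 2 highest pools were those with the most Mmrn1, a lymphatic protein, at 3.59, 3.90 and 11.1 TPM in female pools, against 6.70, 11.2 and 5.43 TPM in male pools. Over the 6 pools, in log2(TPM + 0.1), Lyve1 and Mmrn1 gave r = 0.83 and rho = 0.71 (exact permutation p = 0.061 and 0.14, adjusted p = 0.23 and 0.27 over 6 lymphatic genes). This r was the highest of the 6, and it was 0.19 without the 2 pools farthest from the median of Lyve1. With the other lymphatic genes r ran from -0.33 to 0.72, and from -0.55 to 0.68 without those 2 pools. Mmrn1 and this set of relations were picked out after the values were seen. Prox1, the transcription factor that defines lymphatic endothelium, was at 0.194 to 0.735 TPM in female pools, against 0.474 to 0.791 TPM in male pools. The 6 lymphatic genes summed to 316 to 384 TPM in female pools, against 362 to 384 TPM in male pools, with 5 of 6 having a fold change below 0. Mmrn1 and Prox1 made up little of that sum, which was carried by more abundant genes of the list. The sum therefore does not show how Mmrn1 and Prox1 varied over the pools. The lymphatic share of the Lyve1 values was not tested.

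Of 10 other genes of epineurial and perivascular macrophages 7 had a fold change above 0, with a median log2 value of 0.18. An unadjusted p under 0.05, higher in females, was reached by 1 (all genes, 2.49%). By edgeR 0 were called and by DESeq2 1 (all genes, 0.978%), Cd209d, a lectin of the DC-SIGN family. Cd209d was at 9.92, 8.83 and 11.2 TPM in female pools, against 5.35, 7.55 and 5.13 TPM in male pools, without overlap (log2 fold change 0.72, edgeR adjusted p = 0.50, DESeq2 adjusted p = 0.042). Pf4, the chemokine CXCL4, was at 1109, 858 and 902 TPM in female pools, against 657, 839 and 949 TPM in male pools, and Gas6, a ligand of the phagocytic receptor Mertk, at 265, 256 and 314 TPM in female pools, against 264, 255 and 235 TPM in male pools. White adipocyte genes, markers of a tissue that can adhere to the epineurium, also had fold changes above 0 in 8 of 8 genes. Of these 2 reached an unadjusted p under 0.05, higher in females (all genes, 2.49%), and DESeq2 called 1 (all genes, 0.978%), Lep. They summed to 985, 1254 and 1868 TPM in female pools, against 997, 956 and 923 TPM in male pools. Female replicate 3 was the highest pool in that sum and in the sum of the epineurial markers, and male replicate 3 was the lowest in both. The pools between them were ordered differently. Male replicate 2 was at 375 TPM in the epineurial sum and 956 TPM in the adipocyte sum, and female replicate 2 at 299.8 and 1254 TPM. The part of adhering tissue in the epineurial values was not tested.

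**Figure D3:**
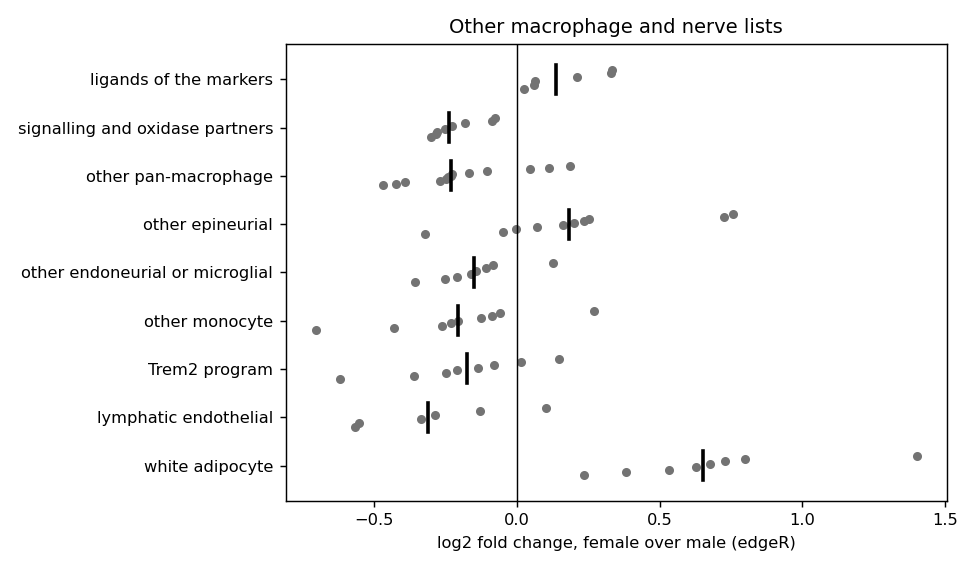
Log2 fold changes, female over male (edgeR), of the genes in 9 further lists, 1 point per gene tested, and a black bar at the median of each list. The medians are 0.14 for the ligands, -0.24 for the signaling and oxidase partners, 0.18 for other epineurial genes, -0.21 for other monocyte genes and 0.65 for white adipocyte genes.

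Set against each other within a pool, the epineurial set weighed more in females. The summed TPM of the 4 epineurial markers was 346, 299.8 and 395 in females and 291, 375 and 246 in males, with overlap. The endoneurial pair summed to 56.7, 49.8 and 55.6 TPM in female pools, against 59.7, 70.0 and 78.5 TPM in male pools, and the monocyte-derived pair to 337, 387 and 351 TPM in female pools, against 448, 503 and 456 TPM in male pools, both without overlap. The pan-macrophage pair summed to 269, 284 and 265 TPM in female pools, against 309, 371 and 288 TPM in male pools. Trem2 made up most of the endoneurial sum and Ccr2 most of the monocyte-derived sum, so on those sides the ratios largely follow 1 gene. The ratios between these sums are given as descriptions, with no test. With geometric means in place of sums, the log2 difference of the epineurial to endoneurial ratio was 0.60, higher in females.

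The epineurial to endoneurial ratio was 6.09, 6.02 and 7.10 in the female pools and 4.88, 5.36 and 3.14 in the male pools, or 6.41 ± 0.605 and 4.46 ± 1.17 (SD, n = 3 pools each). No male pool reached a female pool, and the mean log2 ratio was 0.56 higher in females; it was 0.32 higher when male replicate 3 was left out. The monocyte-derived to epineurial ratio was 0.975, 1.29 and 0.889 in females and 1.54, 1.34 and 1.85 in males, which placed female replicate 2 just under male replicate 2, with a mean log2 difference of -0.59. The monocyte-derived to endoneurial ratio was 5.94, 7.77 and 6.32 in females and 7.51, 7.19 and 5.81 in males. Here the sexes overlapped and the mean log2 difference was -0.04, with a spread of 0.20 (SD) within a sex.

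**Figure D4:**
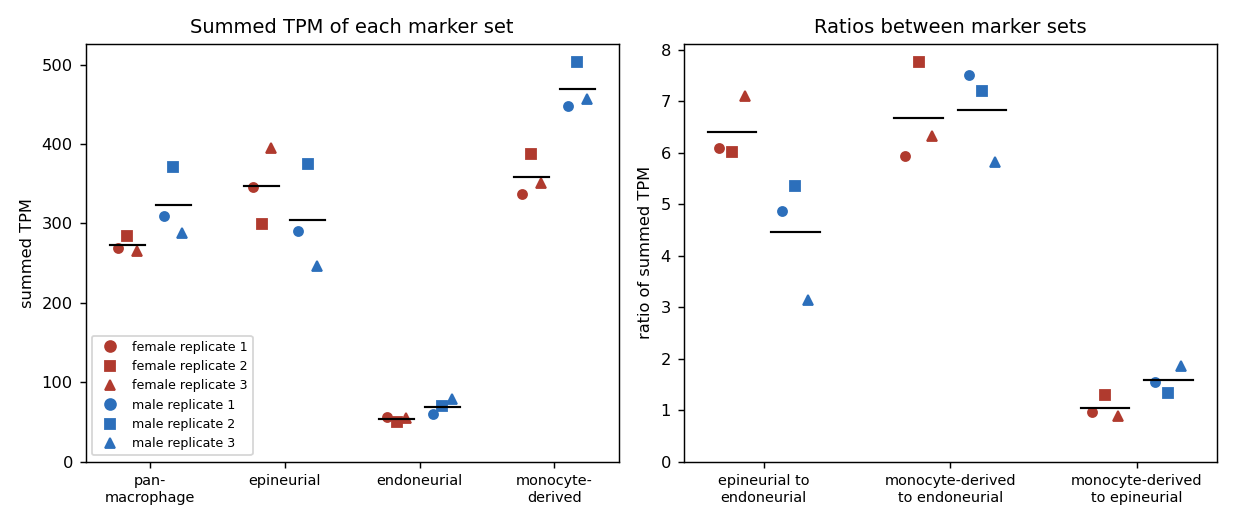
Summed TPM of the 4 marker sets (left) and ratios between the sums (right) in each female (red) and male (blue) pool, with black lines at the mean of 3 pools. The epineurial to endoneurial ratio is 6.02 to 7.10 in females and 3.14 to 5.36 in males, while the monocyte-derived to endoneurial ratio overlaps between the sexes.

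Across the 6 pools the correlations were higher within the 4 epineurial markers, and within the other 6, than between them. Over the 45 pairs the median Pearson's r of log2 normalized CPM was 0.37. It was 0.80 over the 15 pairs within the other 6, all positive, 0.48 over the 6 pairs within the epineurial set, all positive, and -0.01 over the 24 pairs between them, 12 of which were negative. With each sex centered on its own mean the medians were 0.47, 0.81 and 0.36, with 4 of the 15, 0 of the 6 and 7 of the 24 pairs negative, so the split between the groups of markers was smaller within a sex than over all pools. The other 6 are the same 6 markers that had all male pools above all female pools in CPM. The pooled r of each of their 15 pairs therefore includes that separation, and its sign and height do not show a relation apart from it. The 3 pools per sex are too few to test a relation within a sex.

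The highest pair was Csf1r with Cx3cr1 (r = 0.94, rho = 1, both with exact permutation p = 0.0028 and adjusted p = 0.125 over 45 pairs), with r = 0.94 without the 2 pools farthest from the median of Csf1r and 0.62 within sexes. Adgre1 with Ccr2 gave r = 0.94 and rho = 0.94 (exact permutation p = 0.0056 and 0.017, adjusted p = 0.125 and 0.27), and that relation was also close within sexes, at 0.998, and without the 2 farthest pools, at 0.93. Among the epineurial markers, Cd163 with Mrc1 gave r = 0.93 and rho = 0.83 (exact permutation p = 0.014 and 0.058, adjusted p = 0.136 and 0.27), with 0.97 within sexes and 0.62 without the 2 farthest pools. Lyve1 with Folr2 gave r = 0.93 and rho = 0.89 (exact permutation p = 0.017 and 0.033, adjusted p = 0.136 and 0.27), with 0.93 within sexes and 0.76 without the 2 farthest pools. Over all pools the epineurial set thus held 2 close pairs, while r across those pairs was 0.36 to 0.54. Without the 2 farthest pools, r across them was -0.87 for Folr2 with Mrc1 and -0.47 for Lyve1 with Cd163. It was -0.39 for Lyve1 with Mrc1 and 0.45 for Cd163 with Folr2. Within sexes r across those pairs was 0.48 to 0.87, so the split into 2 pairs was smaller there. The most negative pair was Cd163 with Cybb (r = -0.74, rho = -0.77, exact permutation p = 0.12 and 0.10, adjusted p = 0.35 and 0.27), with -0.42 without the 2 farthest pools and -0.13 within sexes. Of the 45 pairs 11 had an unadjusted p under 0.05 for r and 0 had an adjusted p under 0.1.

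**Figure D5:**
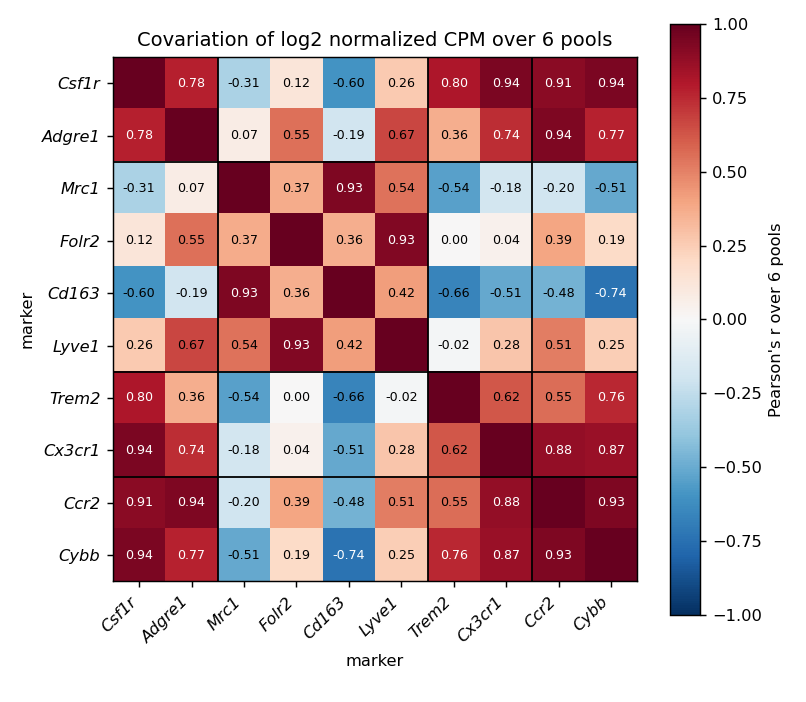
Pearson's r of log2 normalized CPM over 6 pools for each pair of the 10 markers, in the order pan-macrophage, epineurial, endoneurial and monocyte-derived, with black lines between the sets. Over all 6 pools r is positive among the 4 epineurial markers, though not in every pair without the 2 farthest pools. Their r with the other 6 markers runs from -0.74 for Cd163 with Cybb to 0.67 for Lyve1 with Adgre1.

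Among 16300 other genes, those closest to the mean log2 CPM of each marker set over the 6 pools are given as a description, with no p. Iglon5, Tmem81 and Sf3b1, the last a splicing factor, were closest to the pan-macrophage pair (r = 0.993, 0.993 and 0.991). Gpr1, 1700030K09Rik and Tmem147os were closest to the epineurial set (r = 0.991, 0.989 and 0.988). Cyrib, Arrdc1 and Cd74, the invariant chain of MHC class II at 703 TPM, were closest to the endoneurial pair (r = 0.998, 0.992 and 0.988). Hmgb2, Hhex and Gm29514 were closest to the monocyte-derived pair (r = 0.994, 0.992 and 0.991). With 16300 genes ranked on only 6 pools, unrelated genes can also reach an r this high. The r values of the genes named therefore do not show a relation to the markers.

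The TPM of a gene depended in part on short or incomplete transcripts of the annotation. The 10 markers had 39 annotated transcripts. Csf1r-205, of 416 bases, held 21.9% of Csf1r TPM but 1.33% of its read pairs, and Adgre1-204, of 342 bases, held 13.7% of Adgre1 TPM but 0.931% of its read pairs. The full-length Csf1r-201 alone was at 127, 128 and 125 TPM in female pools, against 153, 185 and 169.9 TPM in male pools, without overlap. Csf1r-205 was at 48.2, 51.0 and 35.2 TPM in female pools, against 48.4, 52.7 and 16.6 TPM in male pools, lowest in male replicate 3. Lyve1-202, a retained intron transcript, was likewise lowest in male replicate 3, at 11.1, 10.2 and 20.2 TPM in female pools, against 12.7, 17.7 and 1.62 TPM in male pools. The coding Lyve1-201 was at 22.7, 21.6 and 33.1 TPM in female pools, against 26.8, 35.3 and 24.1 TPM in male pools, with overlap. Trem2-204, a processed transcript, was listed at 0 in male replicate 3 and at 5.89 to 10.5 TPM in the other pools, while the coding Trem2-201 was highest there, at 28.6, 28.9 and 31.4 TPM in female pools, against 32.0, 38.2 and 54.7 TPM in male pools.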

How the data were processed

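Per the labels, poly-A RNA of 6 pools was sequenced as paired reads. The authors trimmed reads with Trimmomatic 0.39 and quantified transcripts with Salmon 1.5.2 (submitters' processing notes) on GENCODE mouse transcripts. The deposited values are an estimated count of read pairs per transcript, not normalized, and TPM, which the authors' software scales by effective length within a sample; the deposited lengths are other values, in bases.

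Here both were summed over 140789 transcripts to 54309 genes, and the estimated counts were rounded to whole numbers. The 16310 genes that reached a CPM of 0.5 in 3 or more pools were tested, female over male, by the robust quasi-likelihood test of edgeR 4.0.16 (TMM factors, no covariate, Benjamini-Hochberg adjustment over all genes tested, threshold 0.1, from the study's methods). The common biological coefficient of variation was 0.154. The steps were tested on simulated data. Relations between markers used log2 normalized CPM and two-sided exact permutation tests over 720 pairings. Those of Lyve1 with lymphatic genes used log2(TPM + 0.1) and the same tests. With 3 pools per sex an exact permutation test of a single difference cannot give a p under 0.1. Coordinates of genes are from GENCODE M39 on GRCm39, and sequences are from RefSeq on GRCm38.p6.

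The markers, their sets and the other lists were chosen with earlier results of these data known. All 10 markers and the ligands and partners were named, apart from genes that are not reported here; of other lists, the 2 genes with the highest mean TPM and the gene with the smallest p, and per marker set the 3 genes most like it. Alternatives were DESeq2 1.42.0, RLE factors, limma 3.58.1 voom with sample weights, transcript length offsets, other filters, fast muscle genes left out, a replicate block and each pool left out in turn, in R 4.3.3 and Python 3.11.15. How reads shared between similar genes affect the values was not tested.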

Additional observations from a re-analysis of the deposited data

How the results depend on the processing

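By edgeR, 0 of the 10 markers were called, and 0 with any single pool left out (range 0 to 0). The count was 4 with DESeq2, 1 without fast muscle genes (Cybb, adjusted p = 0.095), 2 with no filter on low counts (Cybb, adjusted p = 0.0026, and Ccr2, adjusted p = 0.081) and 1 with limma voom and sample weights (Cybb, adjusted p = 0.069). Among all genes edgeR called 10, against 159 with DESeq2, 49 with no filter, 4 with a CPM of at least 1 in all pools, 18 with voom and 3 to 8 with a pool left out. With the replicate number as a block it called 5 genes and 0 markers; pools of the same number had correlations of -0.17, -0.12 and -0.09 in their deviations from the group means, so the numbers do not pair the pools. The log2 fold changes of Csf1r, Adgre1, Cd163, Mrc1, Cx3cr1, Trem2, Ccr2 and Cybb kept their sign in every alternative. That of Lyve1 was -0.11 and turned to 0.016 with transcript length offsets, 0.022 without female replicate 2 and 0.092 without male replicate 2, in a range of -0.38 to 0.092 with a pool left out. That of Folr2 was -0.01 and turned to 0.082 without female replicate 1, 0.052 without female replicate 2 and 0.051 without male replicate 2, in a range of -0.18 to 0.082. The median correlation of the markers, 0.37, was 0.54 as Spearman's rho and 0.25 to 0.69 with a pool left out, the highest without female replicate 3. The log2 difference of the monocyte-derived to endoneurial ratio, -0.04, was 0.070 with protein-coding transcripts alone and -0.15 to 0.043 with a pool left out, above 0 without female replicate 1 (0.043), male replicate 1 (0.036) or male replicate 2 (0.0049). The causes were not tested. That of the epineurial to endoneurial ratio stayed above 0, at 0.32 to 0.71. Cx3cr1 had the fewest read pairs of the 10 markers, 6206 over all pools.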

Other observations

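Of the other cell types of the nerve, 9 myelinating Schwann cell genes (female over male, log2 scale) had a median difference of 0.028, and 0 were called by edgeR or DESeq2, with 0 at an unadjusted p under 0.05. The 6 blood endothelial genes had a median of -0.069, with the same 3 counts at 0. Of 8 fibroblast genes edgeR called 0, and 2 had an unadjusted p under 0.05, lower in females (all genes, 3.62%). DESeq2 called these 2 (all genes, 0.978%), Col1a1 and Col1a2, chains of type I collagen. Col1a1 was at 509 ± 24.9 TPM in females and at 743 ± 107 TPM in males (log2 fold change -0.47, edgeR adjusted p = 0.42, DESeq2 adjusted p = 0.0026). Col1a2, picked out after its values were seen, was at 761 ± 30.3 TPM in females and at 985 ± 116 TPM in males (SD over 3 pools per sex). Of 6 mast cell genes edgeR and DESeq2 called 0, and 1 had an unadjusted p under 0.05, higher in females (all genes, 2.49%). It was Fcer1a, the alpha chain of the IgE receptor, with a log2 fold change of 0.47. Of 10 neutrophil genes 8 were tested, edgeR called 0 and 1 had an unadjusted p under 0.05, higher in females (all genes, 2.49%). DESeq2 called that 1 (all genes, 0.978%), Ngp, a granule protein of immature neutrophils. Ngp was at 2.50 ± 1.31 TPM in females and at 0.739 ± 0.343 TPM in males.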
